A study of Mus musculus with 2 samples.

Results

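A set of 10 mouse genes whose messenger RNAs carry translated upstream reading frames were followed in active ribosome profiling of the newborn brain. The genes were taken by name: Atf4, Atf5, Ddit3, Ppp1r15a, Ppp1r15b, Ifrd1, Slc35a4, Uchl1, Tmem183a and Mief1. All 10 were found among the 45578 genes of the deposited table, with 39 of its 109463 transcripts. The transcript with the most footprints over both libraries stood for each gene; a tie went to a protein-coding transcript and then to the longer one. Brains were taken at postnatal day 5 from heterozygous mice of the Taiwanese line, a spinal muscular atrophy model kept on the FVB background, that served as controls. Their genotype is given as Smn+/-; SMN2tg/0, so every sample lacks 1 functional copy of mouse Smn and carries the human SMN2 transgene on 1 allele. There is 1 group of 2 replicates called biological, and whether they came from separate animals is not stated. The exact p-values set the difference between these 2 libraries against counting error alone and measure no spread between animals. Any such difference may be technical. No untreated wild type or stressed sample was analysed here. RiboLace beads carry a puromycin analogue that captures ribosomes engaged in translation, and the fragments that those ribosomes protected were selected at 25 to 35 nucleotides and sequenced.

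An upstream reading frame begins at a start codon in the 5' untranslated region, here called the leader, ahead of the main coding sequence. Scanning ribosomes that translate it usually fail to reach the main start codon. When the initiation factor eIF2 is phosphorylated under stress, initiation at some upstream frames is bypassed and the main protein is made; Atf4, Atf5, Ddit3 and Ppp1r15a are textbook cases. Other upstream frames encode stable microproteins, as in Slc35a4 and Mief1. In the brain, eIF2 signalling is known for its part in memory and in the stress of neurodegenerative disease.

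In 5 of the genes, the first 50 bases from a RefSeq transcription start site of build GRCm38.p6 hold an ATG. A stretch of 30 bases of each is shown because a scanning ribosome could first meet a start codon there. Capitals mark the ATG. The Ddit3 stretch is chr10:127290813-127290842 (plus strand), that of Ppp1r15a chr7:45526219-45526248 (minus strand), that of Ifrd1 chr12:40223141-40223170 (minus strand), that of Mief1 chr15:80234096-80234125 (plus strand) and that of Atf5 chr7:44815609-44815638 (minus strand). All lie after the annotated start site, in the genome sequence. Whether they belong to the leader of the transcript that was counted was not checked. Counted from the start site, the ATG is at base 37 in Ddit3, 35 in Ppp1r15a, 32 in Ifrd1, 29 in Mief1 and 41 at the second start site of Atf5.
Ddit3: acacgtcgattatatcATGttgaagatgag
Ppp1r15a: aagccgcgtggacgATGttggcgcagattg
Ifrd1: ctagagagaaacATGtatcgtttccgctcg
Mief1: agtagaggggccATGttgatgggtgacccg
Atf5: gatctgtgtgtgtgacactgATGaagggcc

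None of these frames met a stop codon before base 50, so their ends lie outside the stretch searched. Ddit3 and Mief1 each held a second ATG in the same 50 bases. The windows of Atf4, Uchl1 and Tmem183a held no ATG there, which says only that these letters are not in this stretch. RefSeq start sites were found for 8 of the 10 genes, with none listed for Ppp1r15b and Slc35a4. Among 21263 start windows of protein-coding genes, 40.0% held an ATG in the first 50 bases, against 5 of the 10 windows of these genes.

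The promoters of 2 genes carried the 8-base palindrome TGACGTCA, the full cyclic AMP response element to which factors of the ATF and CREB family bind. It was searched in the 300 bases from 250 before to 50 after the start, and reads the same on both strands. It is shown because Atf4 and Atf5 belong to that family. The Ppp1r15a stretch is chr7:45526262-45526291 and the Tmem183a stretch chr1:134362025-134362054, both on the minus strand of GRCm38.p6. The element, in capitals, begins 12 bases before the start of Ppp1r15a and 37 and 44 bases before the 2 listed starts of Tmem183a.
Ppp1r15a: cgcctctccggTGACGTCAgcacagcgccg
Tmem183a: gcgccgggtgaTGACGTCAccgggccccgg

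Of all windows of protein-coding genes, 2.23% held it. Mief1 and Atf4 are also neighbours on chromosome 15, with 1811 bases between the annotated genes.

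Gene-level counts summed to 343565 in replicate 1 and 120269 in replicate 2, so 1 count was worth 2.71 CPM (counts scaled to a common library total) in replicate 1 and 8.93 in replicate 2. Neuronal markers held 0.618% and 0.630% of the counts, those of astrocytes and radial glia 0.309% and 0.295%, and those of the oligodendrocyte lineage 0.0588% and 0.0557%. Of 5 markers of liver and muscle, Alb, Apoa2 and Ckm had 0 counts in both libraries and Myh1 had 1 and 0, but Acta1, the skeletal muscle actin, had 70 and 22, at 170.3 ± 4.28 CPM per kilobase of coding sequence (SD, n = 2). Actin genes are similar to one another. Whether fragments of other actins were counted on Acta1 was not tested, so its counts are uncertain. The libraries differed in 225 of the 5436 genes that averaged 10 counts or more, or 4.14%, by a 2-sided exact binomial test with Benjamini-Hochberg adjustment at 0.05; among protein-coding genes 0.956% were called. This test compares the reads of 2 libraries, not conditions. Of the 225 genes called, 217 were higher in replicate 2 and 8 lower.

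Together the 10 genes held 465 of the gene counts in replicate 1, a share of 0.135% (Wilson 95% limits 0.124 and 0.148). In replicate 2 they held 157, a share of 0.131% (limits 0.112 and 0.153). Uchl1 alone supplied 80.0% of them in replicate 1 and 82.2% in replicate 2. The other 9 genes held 93 and 28 counts, or 0.0271% (0.0221 to 0.0332) and 0.0233% (0.0161 to 0.0336). The shares of the libraries overlapped within counting error in each case. Intervals here cover counting error only, since reads amplified by PCR with no molecular identifier need not be separate molecules. In bulk tissue, fewer cells of a type and less RNA per cell cannot be told apart.

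Per kilobase of coding sequence, the order was Uchl1, Atf4, Slc35a4, Ppp1r15b, Atf5, Tmem183a, Ifrd1, Mief1, Ddit3 and Ppp1r15a. Uchl1 stood 26.5-fold above Atf4, and neither the replicates nor the exact Poisson intervals of these genes overlapped. Atf4 stood 2.06-fold above Slc35a4; both replicates of Atf4 were higher, but the intervals overlapped in each library. From Slc35a4 down to Mief1, the replicate values of every pair of neighbours overlapped, so the order of these 6 genes is not resolved. Mief1 came before Ddit3, which had a single count; their intervals overlapped in both libraries, and the 0 of Ddit3 in replicate 2 allows up to 52.9 CPM per kilobase, above the 12.8 of Mief1. The median density of the 10 genes was 24.9 CPM per kilobase, beside 14.4 over the 13510 protein-coding genes with at least 1 count and 4.53 over all 20904 with a coding representative. Of the 10 genes, 8 lay above the median of detected coding genes.

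**Figure D1:**
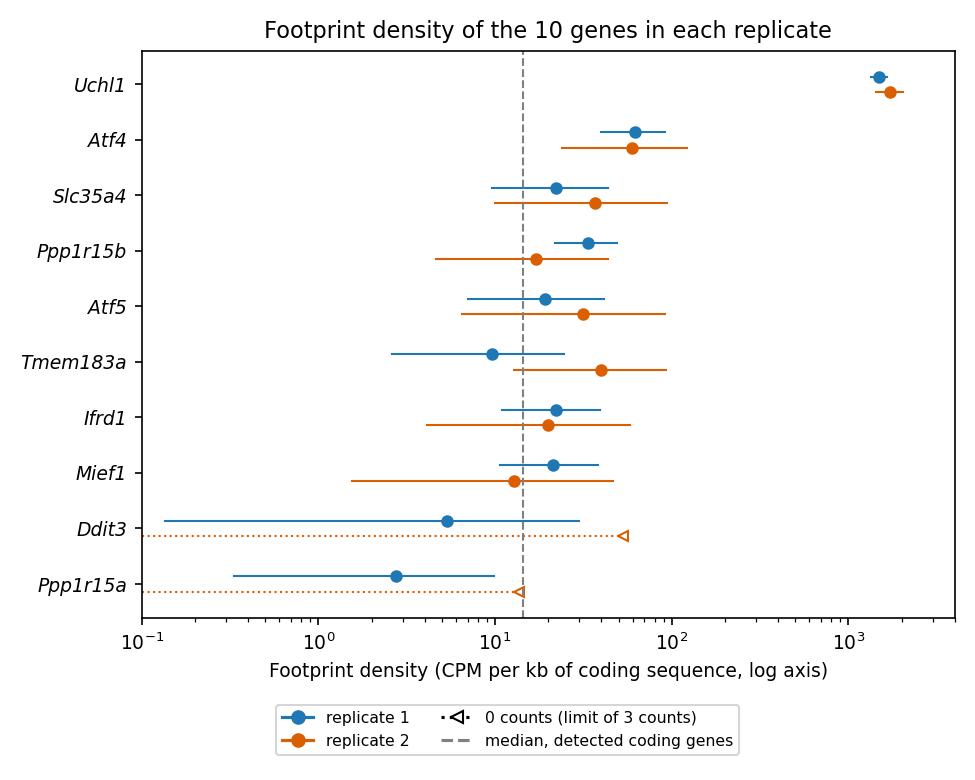
Footprint density of each gene in replicate 1 (blue) and replicate 2 (orange), in CPM per kilobase of coding sequence on a log axis, with exact 95% Poisson intervals; open triangles stand at the limit of 3 counts for a count of 0, and the dashed line is the median of detected protein-coding genes (14.4). Uchl1 stands apart at 1500 and 1715, 6 genes lie between 9.61 and 39.6, and Ddit3 and Ppp1r15a have no count in replicate 2.

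Atf4 (ENSMUSG00000042406), the transcription factor that drives amino acid synthesis and transport genes under stress, had 24 counts in replicate 1 and 7 in replicate 2. These were 65.0 and 62.5 CPM, or 63.8 CPM ± 1.76 (SD, n = 2), and 61.9 and 59.6 CPM per kilobase of coding sequence. The replicates were close, and per kilobase of coding sequence both lay above every other gene of the 10 but Uchl1; in CPM, Ppp1r15b was higher in replicate 1, at 70.4. Atf4 is annotated with a single transcript of 1724 nucleotides, of which the leader takes 594, the coding sequence 1050 and the 3' region 80. Its density exceeded that of 82.3% of detected coding genes. The deposited table gives counts per whole transcript, so fragments on the Atf4 upstream frames and on its coding sequence cannot be told apart.

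Atf5 (ENSMUSG00000038539), a related factor known in the brain for keeping neural progenitors in the cell cycle, had 6 and 3 counts, at 16.3 and 26.8 CPM. Its density was 19.1 and 31.5 CPM per kilobase of coding sequence, below both Atf4 values. Ddit3 (ENSMUSG00000025408), which encodes CHOP, a factor induced in prolonged stress and linked to cell death, had 1 count in replicate 1 and 0 in replicate 2. A count of 0 there allows a share of up to 0.00249% of counts, or 26.8 CPM, so Ddit3 was near the limit of detection in both libraries. Among the relatives of the factors, Atf2 (13 and 4 counts) stood at 26.2 and 26.6 CPM per kilobase, Atf6b (35 and 4) at 44.7 and 16.8, and Creb1 (7 and 1) at 19.9 and 9.36, all below both Atf4 values. Atf3, a stress-induced member, had 1 and 0 counts. Atf2, Creb1 and Atf3 were named after their values were seen.

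Ppp1r15b and Ppp1r15a encode the regulatory subunits that bring protein phosphatase 1 to eIF2; the first is known as the constitutive and the second, also called GADD34, as the stress-induced form. Ppp1r15b (ENSMUSG00000046062) had 26 counts in replicate 1 and 4 in replicate 2, at 33.6 and 17.1 CPM per kilobase of coding sequence. Ppp1r15a (ENSMUSG00000040435) had 2 and 0 counts, at 2.74 in replicate 1, with up to 13.6 allowed in replicate 2 by the limit of 3 counts. Ppp1r15b was the higher in both libraries. In replicate 1 the exact Poisson intervals, 22.0 to 49.3 and 0.332 to 9.92, did not overlap, and the depth of replicate 2 did not separate them. The coding sequences are of like length, 2094 and 1974 nucleotides.

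The upstream frames of Slc35a4 and Mief1 are known to make microproteins of mitochondria. Slc35a4 (ENSMUSG00000033272), named as a nucleotide sugar transporter, had 8 and 4 counts, at 22.2 and 36.6 CPM per kilobase of coding sequence. Mief1 (ENSMUSG00000022412), a receptor of the outer mitochondrial membrane for the fission protein Drp1, had 11 and 2 counts, at 21.4 and 12.8. The replicate values of these genes did not overlap, with Slc35a4 the higher, but the exact Poisson intervals overlapped in each library. Dnm1l, which encodes Drp1, had 49 and 12 counts at 63.2 and 51.0 CPM per kilobase, above both Mief1 values. The paralog Mief2 had 5 and 4 counts.

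Ifrd1 (ENSMUSG00000001627), a regulator of transcription whose upstream frame is known to mark its messenger RNA for decay, had 11 and 3 counts at 22.1 and 19.9 CPM per kilobase of coding sequence. Tmem183a (ENSMUSG00000042305), a membrane protein, had 4 counts in replicate 1 and 5 in replicate 2, at 9.61 and 39.6. It was the only gene of the 10 with more raw counts in the shallower library. Uchl1 (ENSMUSG00000029223), the ubiquitin hydrolase that is among the most abundant proteins of neurons, had 372 and 129 counts. These were 1008 and 1152 CPM, or 1080 CPM ± 102 (SD, n = 2), and 1500 and 1715 CPM per kilobase of coding sequence. Beside it, the 6 neuronal markers had a median density of 422 CPM per kilobase, and Tubb3, the neuronal tubulin and the marker of highest count, stood at 2399 ± 388 (SD, n = 2). Tubb3 was also the 1 neuronal marker called between the libraries, with a ratio of replicate 2 to replicate 1 of 1.26 (exact 95% interval 1.12 to 1.41, adjusted exact p = 0.0036). Its relative Uchl3 stood at 117 and 103.

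Leaders of the 10 genes were long. Their annotated lengths ran from 109 nucleotides in Tmem183a to 764 in Ppp1r15a, with a median of 415.5, beside a median of 133 over 20904 protein-coding genes. Of the 10 leaders, 9 were longer than that median. Ppp1r15a, Slc35a4 (722), Ppp1r15b (604) and Atf4 (594) lay above the 95th percentile, and Tmem183a lay at percentile 43.1. Ppp1r15b, at 95.28, and Atf4, at 95.03, were only just above it. The median and the percentiles include genes with no annotated leader. Leaving those out would raise the median and lower the percentiles, by amounts that were not computed. The Ppp1r15a transcript with a leader of 764 was chosen by its length in a tie; the other coding isoform has a leader of 283.

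Median density did not fall with leader length across the coding genes of the table. Density here divides the counts of the whole transcript, leader included, by the coding length alone. Genes were put in 5 classes of rising leader length, undetected genes included. The median density was 2.22 CPM per kilobase over 6138 genes, 6.75 over 5017, 8.47 over 4750, 9.04 over 2148 and 10.05 over 474. Spearman's rho was -0.0120 across the 12923 detected genes with a leader; these genes share the same 2 libraries and are not independent. Each gene was set beside all coding genes, detected or not, whose leader was within 25% of its own in length. Atf4 exceeded 87.1% of 1530 such genes, Slc35a4 77.8% of 969, Ppp1r15b 73.4% of 1498 and Uchl1 99.7% of 3920. Ppp1r15a exceeded 25.0% of 851 such genes and Ddit3 36.3% of 3899. These were the 2 of the 10 genes below the median of genes with similar leaders.

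**Figure D2:**
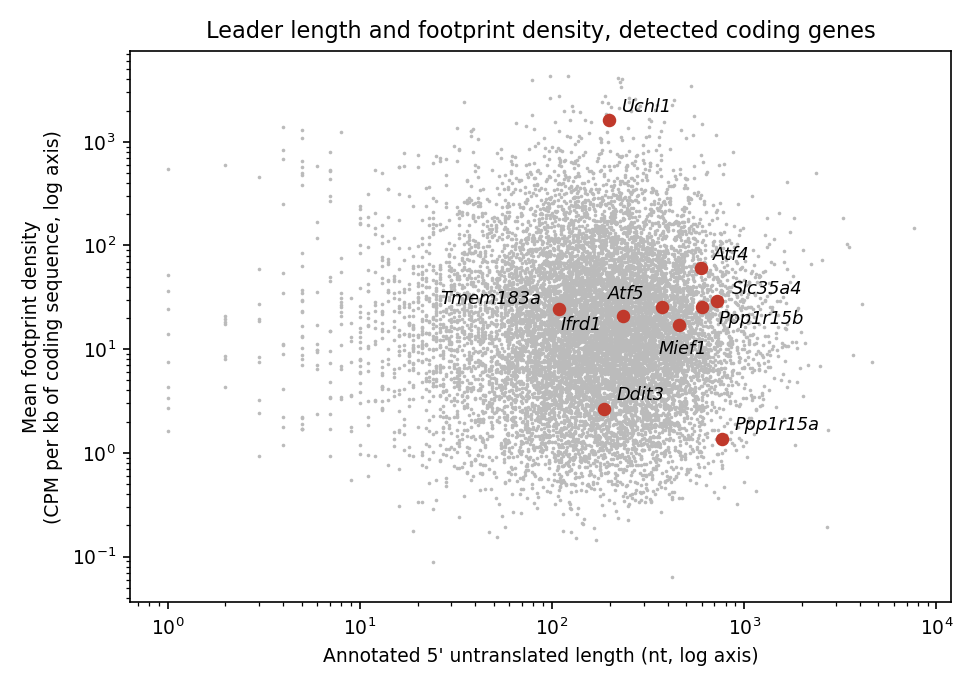
Annotated leader length in nucleotides against mean footprint density over both replicates in CPM per kilobase of coding sequence, both on log axes, for detected protein-coding genes with a leader (grey) and the 10 genes (red). The 10 genes lie toward long leaders but spread over the whole range of density, from Ppp1r15a at 1.37 to Uchl1 at 1607.

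Isoforms of a gene share most of their fragments, and a fragment appears to be counted for each isoform it matched. In Slc35a4, the isoform Slc35a4-005 consists of a coding sequence of 312 nucleotides, or 104 codons, with no annotated untranslated sequence, while the isoforms with the transporter frame have a longer coding sequence and leaders of 627 to 1099. The short isoform had 3 counts in replicate 1 and 1 in replicate 2, beside 8 and 4 on the representative, or 33.3% as many counts on 12.7% of the length. With 4 counts this is not separable from an even spread: its 0.962 counts per 100 nucleotides in replicate 1 had an exact Poisson interval of 0.198 to 2.81, which includes the 0.325 of the whole transcript. The table does not place the short frame on the longer isoforms, and its sequence was not compared with them.

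Atf5 has 2 isoforms with the same coding length of 852 and the same 3' length, and leaders of 293 and 373 nucleotides. The isoform with the shorter leader had 2 counts in each replicate, and that with the longer leader 6 in replicate 1 and 3 in replicate 2. If every fragment of the shorter isoform is also counted on the longer, the 80 added nucleotides carried 5 counts (exact Poisson interval 1.62 to 11.7). At 4 counts over the coding sequence, 0.376 would be expected. Whether the counts are shared in this way was not tested, and without it the interval does not hold. The difference was 4 counts in replicate 1 and 1 in replicate 2. RefSeq lists 2 start sites for Atf5 that lie 1000 bases apart, so the longer leader need not contain the shorter. The genes Nup62 (23 and 14 counts) and Il4i1 (1 and 2 counts) overlap Atf5 in the annotation, and fragments of overlapping genes cannot be told apart because the strand of counting is not given in the sources used here. The same limit holds for Ddit3, which overlaps Mars (12 and 6 counts) and Mbd6 (3 and 0 counts). It also holds for Slc35a4, which overlaps Apbb3, and for Ppp1r15a, which overlaps Tulp2 (0 counts in both libraries).

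In Slc35a4 the isoforms went different ways. The isoform with a leader of 722 nucleotides had 1 more count in each replicate than that with 627. If the longer isoform holds every fragment of the shorter, 95 added nucleotides carried 2 counts (exact Poisson interval 0.242 to 7.22). At the coding density 0.974 would be expected. The isoform with a leader of 1099 had the same 7 and 3 counts as that with 627. Under the same assumption, 472 added nucleotides carried 0 where 4.84 would be expected. Both Ppp1r15a isoforms had 2 and 0 counts, with leaders of 283 and 764. The Mief1 isoforms, with leaders of 458 and 890, had 11 and 2 and 9 and 3 counts, but their 3' regions also differ, with 3231 and 430 nucleotides. No pair of these genes reached the minimum of 20 counts on the shorter isoform that had been set for a test. Pooled over the 330 genes that did, the count difference per added nucleotide was 14.04% of the coding density, 13.7% in replicate 1 and 15.3% in replicate 2. The median was lower, at 3.97%, with 5.04% in replicate 1 and 0.0% in replicate 2. Coding density here takes all counts of the shorter isoform over its coding length. The minimum of 20 counts was set on the shorter isoform alone, whose counts are the ones subtracted, which can lower the difference. In 135 of these genes the longer leader had fewer counts than the shorter, so the longer isoform need not contain the shorter. No test per pair is given, since pairs with fewer counts on the longer leader cannot enter one.

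**Figure D3:**
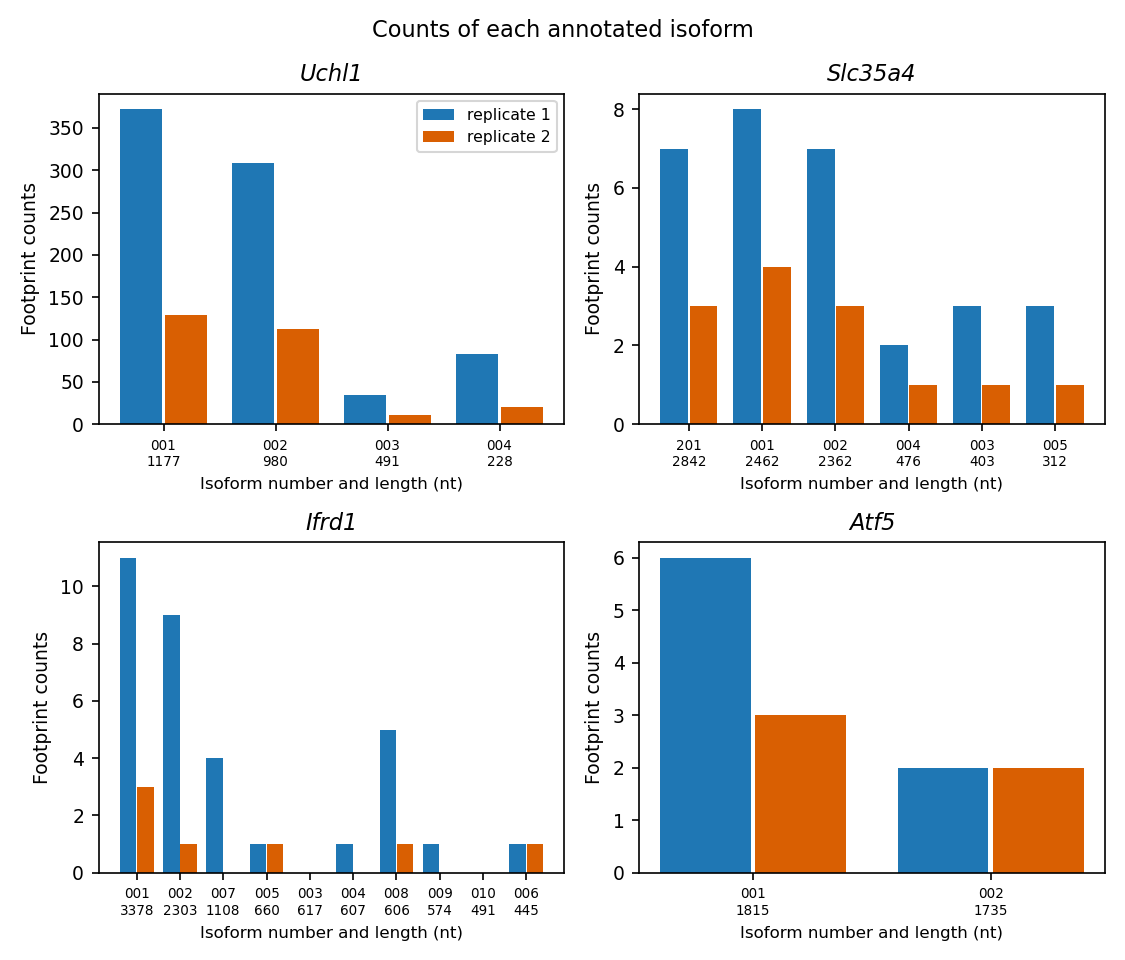
Footprint counts of every annotated isoform of Uchl1, Slc35a4, Ifrd1 and Atf5 in replicate 1 (blue) and replicate 2 (orange), ordered from the longest isoform to the shortest, with isoform number and length in nucleotides under each pair of bars. The Uchl1 isoform 004 of 228 nucleotides holds 83 and 20 counts, against 34 and 11 on isoform 003 of 491 nucleotides.

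Uchl1 had enough counts to compare its isoforms. The representative carried 31.6 counts per 100 nucleotides in replicate 1 (exact Poisson interval 28.5 to 35.0) and 10.96 in replicate 2 (9.15 to 13.0). The retained-intron isoform Uchl1-002 held 82.8% and 86.8% of the counts of the representative, at 31.4 and 11.4 per 100 nucleotides. Uchl1-004, 228 nucleotides long, held 36.4 (29.0 to 45.1) and 8.77 (5.36 to 13.6), with intervals that overlapped those of the representative in each library. Uchl1-003, of 491 nucleotides, stood at 6.92 (4.80 to 9.68) and 2.24 (1.12 to 4.01), lower in both libraries with intervals apart. The antisense gene Uchl1os, whose annotation overlaps Uchl1, had 0 counts in both libraries. In Ifrd1, the isoform Ifrd1-008 of 606 nucleotides had 5 and 1 counts beside 11 and 3 on the representative, or 42.9% as many on 17.9% of the length. This is not separable from an even spread. Per 100 nucleotides Ifrd1-008 held 0.825 (0.268 to 1.93) and 0.165 (0.00418 to 0.919), intervals that include the 0.326 and 0.0888 of the representative. The Ifrd1 isoform of the nonsense-mediated decay class, Ifrd1-007, had 4 and 0 counts, and that of Tmem183a, Tmem183a-003, 4 and 3.

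Between the libraries, 3 of the 10 genes passed the filter of a mean of at least 10 counts and none of the 3 differed. The share called was 4.14% over all genes and 0.956% among protein-coding genes, the class of these 3. Neither share leads to a call being expected among 3 genes. Uchl1 had a ratio of replicate 2 to replicate 1 of 1.14 (exact 95% interval 0.928 to 1.40, adjusted exact p = 0.854), Atf4 one of 0.962 (0.350 to 2.30, adjusted exact p = 1.0) and Ppp1r15b one of 0.507 (0.129 to 1.46, adjusted exact p = 0.922). None of the 3 had an unadjusted exact p under 0.05, against 9.62% of all genes tested and 248 of the 4392 protein-coding genes tested. None had one with edgeR at a preset coefficient of variation of 0.2 either. With scaling by gene totals, which lowers every log2 ratio by 0.21 (a change of -0.21), the Uchl1 ratio became 0.991. The other 7 genes were below the filter. Their ratios ran from 0.599 in Mief1 (0.0646 to 2.75) to 4.12 in Tmem183a (0.887 to 20.8) where both libraries had a count, with intervals that all included 1. Tmem183a had an unadjusted exact p of 0.037 there, with 4 and 5 counts, and was not among the genes tested.

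**Figure D4:**
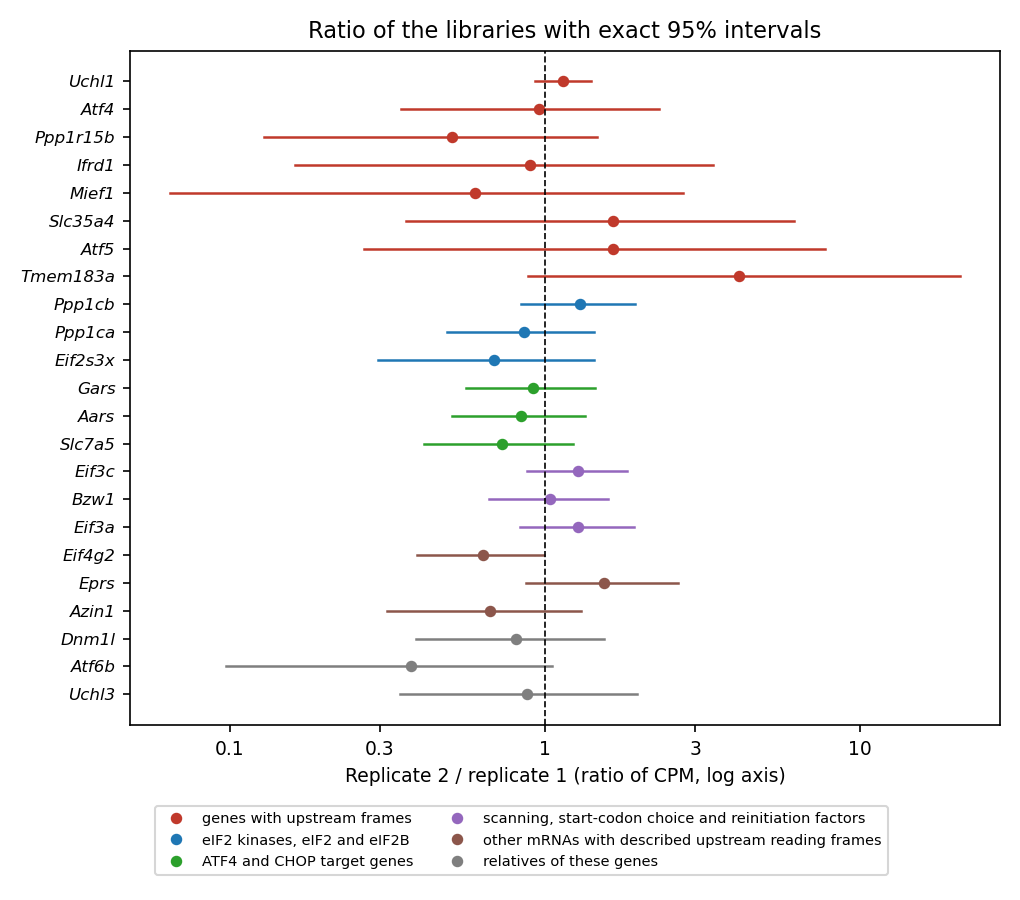
Ratio of replicate 2 to replicate 1 in CPM on a log axis with exact 95% intervals, for the 8 genes with counts in both libraries (red, by falling count) and for the 3 genes of highest count in each of the 5 fixed lists. Intervals of the red genes all cross 1; that of Eif4g2 ends at 0.994.

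The rest of the pathway was described from 5 fixed lists of 107 genes, of which 55 passed the filter. None of the 55 differed between the libraries by the exact binomial test, beside 0.956% called among protein-coding genes. Only 1, Eif4g2, had an unadjusted p under 0.05 (adjusted exact p = 0.461). Over all 5436 genes tested the median log2 ratio was 0.0050.

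Genes of eIF2, its kinases, its exchange factor eIF2B and phosphatase 1 (17 genes, 10 tested) had a median log2 ratio of -0.31. The catalytic subunits Ppp1cb (87 and 34 counts) and Ppp1ca (73 and 19) and the eIF2 gamma subunit Eif2s3x (43 and 9) led by count, at 274 ± 48.9, 185 ± 20.0 and 69.4 ± 18.0 CPM per kilobase of coding sequence (SD, n = 2). Ppp1cb thus stood well above both regulatory subunits. The 4 eIF2 kinases had few counts: Eif2ak1 had 11 and 4, Eif2ak2 5 and 1, Eif2ak3 1 and 4, and Eif2ak4 3 and 0. They were named after their values were seen.

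Genes known as targets of ATF4 and CHOP (28 genes, 11 tested) had a median log2 ratio of -0.13. Gars (90 and 25 counts) and Aars (90 and 23), which charge glycine and alanine transfer RNAs, stood at 107 ± 6.63 and 77.3 ± 9.34 CPM per kilobase, and the amino acid transporter Slc7a5 (81 and 18) at 124 ± 27.0 (SD, n = 2). Asparagine synthetase, Asns, had 43 and 9 counts, at 69.1 and 47.7 CPM per kilobase, beside 61.9 and 59.6 for Atf4 itself. Of the 28, 5 had 0 counts in both libraries: Cth, Fgf21, Gdf15, Stc2 and Trib3, which allows each a share of up to 0.00087% in replicate 1. Chac1 had 4 and 0. Asns, Chac1 and the 5 genes at 0 were named after their values were seen.

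Factors of scanning, start-codon choice and reinitiation (26 genes, 21 tested) had a median log2 ratio of 0.084. Eif3c (114 and 44 counts) and Eif3a (88 and 34), subunits of the eIF3 complex, stood at 128 ± 21.8 and 67.2 ± 11.4 CPM per kilobase, and Bzw1 (95 and 30), which competes with eIF5 and raises the stringency of start-codon choice, at 208 ± 5.95 (SD, n = 2). Denr and Mcts1, partners in reinitiation after upstream frames, had 28 and 9 and 15 and 5 counts, and were named after their values were seen. The list had a median density of 114 CPM per kilobase, against 24.9 for the 10 genes with upstream frames. That median leaves out Eif5b, whose representative has no coding length.

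Other messenger RNAs with described upstream frames (18 genes, 8 tested) had a median log2 ratio of 0.30. Their median density was 20.2 CPM per kilobase, beside 24.9 for the 10. It leaves out Mdm2, whose representative has no coding length. Eif4g2 (124 and 24 counts), an initiation factor, stood at 123 and 78.8 CPM per kilobase, Eprs (45 and 21), which charges glutamate and proline transfer RNAs, at 26.9 and 41.3, and the antizyme inhibitor Azin1 (54 and 11) at 109 and 72.9. The relatives of the 10 genes (20 genes, 5 tested) had a median log2 ratio of -0.31; Dnm1l, Atf6b and Uchl3 led by count.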

How the data were processed

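Both libraries were made from whole brain and described in 1 table. The authors deposited it as whole-number footprint counts per Ensembl transcript, not normalised, with other columns for the lengths of the transcript and its regions, per the file headers. Trimmomatic 0.36, Bowtie2 2.2.6, SAMtools and build GRCm38.p4 are named in the submitters' processing notes; the counting tool, strand and annotation release are not given in the sources used here. Each count column was tied to its replicate by the number in its name. Over all isoforms the table held 2.12 and 1.87 times the gene counts, so a fragment was taken to be counted on every transcript it matched, and column sums are not reads.

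CPM used gene totals times TMM factors (1.07 and 0.931) from edgeR 4.0.16 from genes averaging 10 counts or more. Densities were divided by the coding length of the representative transcript. Exact binomial tests (SciPy 1.17.1) were adjusted over all genes tested, and intervals are 95%. The tests were also run on simulated Poisson counts, a check that covers no spread beyond counting error. Leader pairs were coding isoforms of equal coding length, with leaders differing by at least 20 nucleotides and 3' regions by at most 20; the planned test per pair was dropped, because it can take only pairs with no fewer counts on the longer leader. The members and lists were chosen with earlier results of these data known. Named genes were the 10 members, the 3 of highest count per list and any called; others are marked as named after their values were seen. Where a count was 0, the limit is 3 counts. Alternatives were other scalings (DESeq2 1.42.0 size factors among them), filters, isoform choices and single replicates. Likeness of patterns was not measured, since 2 samples of 1 group give none.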

Additional observations from a re-analysis of the deposited data

How the results depend on the processing

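None of the genes tested among the 10 was called under the 8 alternatives, which tested 3 of them in 5 settings, 10 without a count filter, 7 with isoform counts summed and 1 with 50 counts or more on average; on summed isoforms 2 of the 7, Uchl1 and Tmem183a, had an unadjusted p under 0.05. The pathway lists gave 0 calls except with isoform counts summed, where 3 were called (Eif2d higher, Eif2b4 and Herpud1 lower in replicate 2); a sum counts a fragment several times, so the test takes repeated fragments as independent. Over all genes the 225 calls became 605 on summed isoforms, 131 at a preset coefficient of variation of 0.2, 75 of 764 tested with 50 counts or more on average, and 22 on coding genes alone. The median density of 24.9 became 9.15 per kilobase of whole transcript, by construction, and ran from 21.7 to 25.7 across the fits that left out 1 replicate. The pooled added-leader density over all genes, 14.04% of the coding density, became 10.5% with leaders differing by at least 100 nucleotides. It became 15.3% both with at least 10 counts (15.26%) and with any 3' length, and 27.9% against the density of the whole transcript. With at least 1 count, a setting added after the data were seen, it was 19.0%. Without 1 replicate it ran from 13.7% to 15.3%. Except where a construction is named, the cause was not tested. No paired analysis was possible because the study holds 1 group, with nothing to pair. Leaving out a replicate gave no library test. At 2.71 and 8.93 CPM per count, 7 of the 10 genes had too few counts to compare the libraries.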
